A study of Homo sapiens with 6 samples.

Results

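The genes described here are 45 that encode plasma proteins known as secretory products of the liver, chosen by name. Of these, 44 were measured, by 60 of the 28264 probes of the array, and GC, the vitamin D carrier, was not analysed here. A probe was assigned to a gene by the platform's annotation, updated to current symbols. For a gene with several probes, the brightest probe over all 6 arrays stood for the gene, and the other probes are given where they differ.

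The 6 arrays carried RNA of cells labelled Hep3B, an established line from a hepatocellular carcinoma, grown in DMEM with 10% serum. By their labels, 3 arrays came from cells transfected with a vector, named GFP in the titles, and 3 from cells transfected with CCN5, a secreted matricellular protein also called WISP2. No array of untransfected cells and none of another liver sample was used here, and the labels do not say whether the replicates were separate cultures, so that p-values measure no more than the spread from array to array, part of which may be technical. The number of arrays limits the precision. Each array gave 1 background-subtracted Cy3 intensity per probe, with a median of 504 to 600.

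Plasma proteins are made in hepatocytes, which secrete them into the blood without storing them. Albumin and the smaller carriers hold osmotic pressure and transport hormones, vitamins and metals, apolipoproteins package lipid, the clotting factors circulate as inactive precursors, and acute phase proteins rise in inflammation. Their genes are switched on together in hepatocytes by liver-enriched transcription factors such as the HNF1, HNF4, FOXA and C/EBP families. Hepatoma lines, Hep3B among them, are known for keeping part of this secretory programme, with albumin and alpha-fetoprotein as its defining products.

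The check of the transfected gene went against the labels. The single CCN5 probe read 835, 836 and 880 on vector replicates 1 to 3 and 673, 672 and 620 on CCN5 replicates 1 to 3, so that all 3 arrays labelled CCN5 lay below the others. Its normalized log2 difference, CCN5 minus vector, was -0.34 (SE 0.09, limma's adjusted p 0.151). Of all named genes by their brightest probe, 11.1% had all arrays labelled CCN5 lower, both as deposited and after normalization. The exact two-sided permutation p was 0.1, the smallest that 3 arrays against 3 allow, and no source used here says if the probe reads the transfected CCN5. The groups are therefore named by their labels throughout, and every direction below rests on those labels.

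The signal level of the plasma protein genes was read next, beside the label of the cell line. No array of another liver sample was used here, so a mismatch with that label was not tested. A probe's level is given as its percentile of mean normalized signal among all 28264 probes, which is a description, since the brightness of a probe depends on its sequence as well as on its transcript and no detection flags were used. Of the 44 genes, 6 (13.6%) lay above the 50th percentile, against 55.3% of all 19090 named genes taken by their brightest probe, and 18 of the 44 (40.9%) lay below the 25th percentile, against 21.6% of all named genes. The median percentile was 29.7 for the plasma protein genes and 55.5 for all named genes. In RNA from a whole culture, fewer cells that make a transcript and less of it per cell cannot be told apart. No plasma protein gene lay above the 90th percentile, where 12.1% of all named genes were found, and within single arrays the median percentile of the 44 genes was 28.8 to 32.2 with 6 to 8 genes above the 50th percentile.

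**Figure D1:**
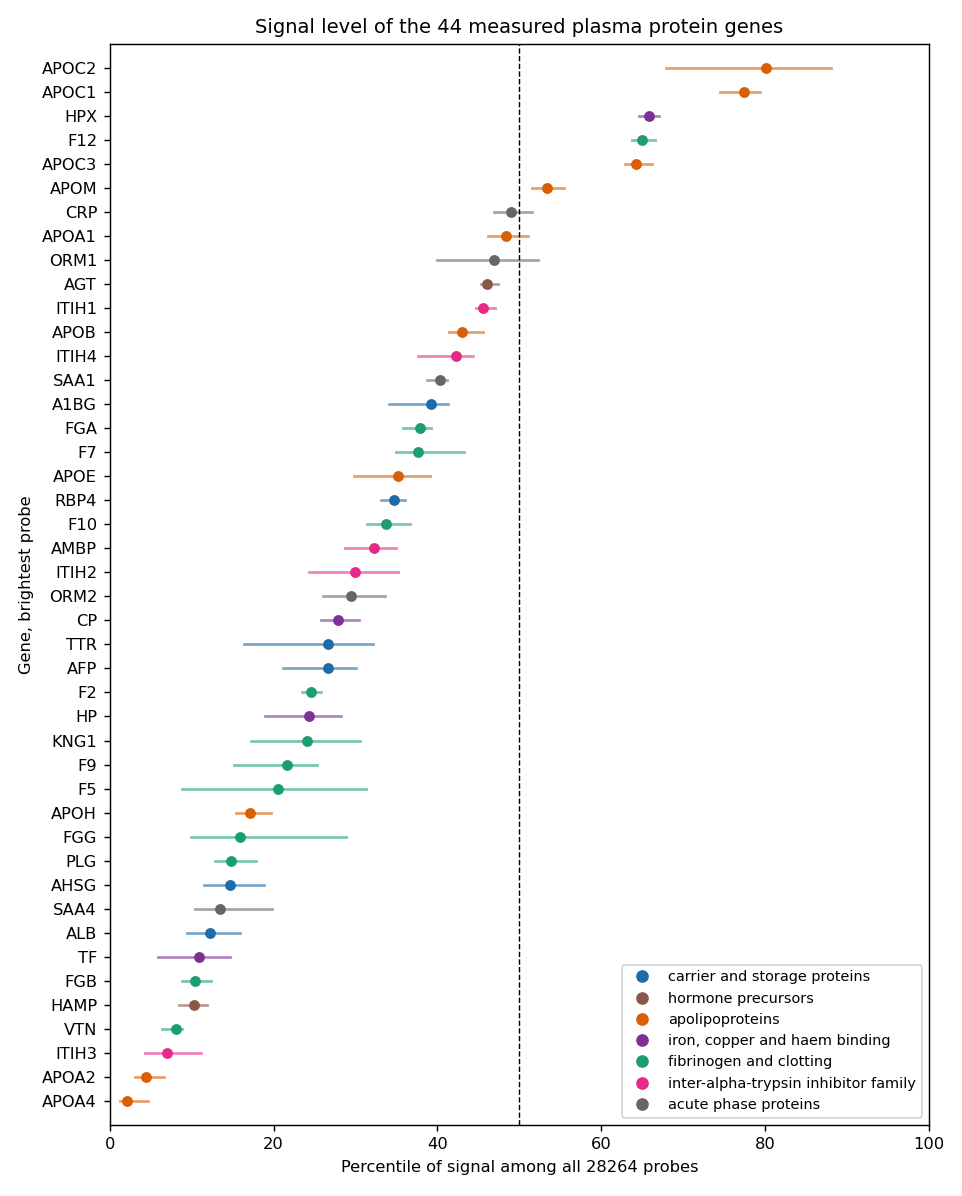
Percentile of signal among all 28264 probes for the 44 measured plasma protein genes, ordered by level and coloured by role. Points are percentiles of the mean over the 6 arrays, lines span the lowest to the highest percentile within single arrays, and the dashed line marks the 50th percentile, which 6 genes exceed.

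Albumin, ALB, the most abundant protein of plasma, gave one of the dimmer signals. Its single probe read 30.89, 84.86 and 65.002 on vector replicates 1 to 3 and 51.53, 50.05 and 50.63 on CCN5 replicates 1 to 3, at percentile 12.2. Alpha-fetoprotein, AFP, its fetal counterpart and a marker of hepatoma, read 126, 183 and 171 on the arrays labelled vector and 115, 144 and 99.3 on those labelled CCN5, at percentile 26.7. Both therefore sat in the dimmer part of the array on all 6 arrays, within single arrays at percentiles 9.47 to 15.9 for ALB and 21.2 to 30.1 for AFP. ALB and AFP are neighbouring genes with no other protein-coding gene between them.

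The 250 bases before the start of 3 of the defining liver genes, ALB, AFP and fibrinogen beta, are shown because hepatocytes switch these genes on through such promoters, and the promoter of APOE is shown beside them as that of the gene with the smallest p in the comparison of labels. Sequences are from RefSeq on GRCh38.p14, each on the plus strand, 5′ to 3′, at chr4:73404037-73404286 for ALB, chr4:73435971-73436220 for AFP, chr4:154562730-154562979 for FGB and chr19:44905546-44905795 for APOE. Capitals mark GTTAAT or its reverse complement ATTAAC, letters found in the binding motif of HNF1.
ALB: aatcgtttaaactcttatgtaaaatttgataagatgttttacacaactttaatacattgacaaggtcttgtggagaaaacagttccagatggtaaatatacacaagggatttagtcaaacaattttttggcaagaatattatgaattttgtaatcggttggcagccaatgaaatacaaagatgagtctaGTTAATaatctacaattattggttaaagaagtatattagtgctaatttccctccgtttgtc
AFP: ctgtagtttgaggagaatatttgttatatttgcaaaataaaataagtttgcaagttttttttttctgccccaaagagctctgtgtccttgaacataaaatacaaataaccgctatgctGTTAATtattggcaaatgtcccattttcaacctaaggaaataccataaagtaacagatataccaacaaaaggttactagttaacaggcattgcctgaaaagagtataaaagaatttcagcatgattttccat
FGB: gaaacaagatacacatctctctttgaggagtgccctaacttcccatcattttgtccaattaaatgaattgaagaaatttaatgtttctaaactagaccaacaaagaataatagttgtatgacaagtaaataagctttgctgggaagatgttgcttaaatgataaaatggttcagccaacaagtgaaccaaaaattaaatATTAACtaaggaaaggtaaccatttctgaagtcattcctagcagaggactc
APOE: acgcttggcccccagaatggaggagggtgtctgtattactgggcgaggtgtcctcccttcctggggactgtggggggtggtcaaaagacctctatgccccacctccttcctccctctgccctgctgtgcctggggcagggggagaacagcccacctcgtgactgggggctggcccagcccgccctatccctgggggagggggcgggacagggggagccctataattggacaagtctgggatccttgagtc
The 6 letters began 61 bases before the start of ALB, 132 before that of AFP and 51 before that of FGB. The promoter shown for APOE did not hold them. A promoter was at hand for 35 of the 45 genes, and 8 of these 35 (22.9%) held GTTAAT on either strand in the 250 bases before a start, namely AFP, ALB, APOH, F2, FGA, FGB, PLG and SAA4, against 2047 of 27305 genes (7.5%). TATAAA, the letters of the TATA box, on either strand, was in 6 of the 35 (17.1%), namely AFP, AGT, APOC2, CRP, ORM1 and RBP4, against 3563 of the 27305. A match is a description of the letters only. The 8 genes with GTTAAT lay at percentiles 10.5 to 37.8, all below the 50th, as did 38 of all 44 measured genes.

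The other carriers were low as well. Transthyretin, TTR, which carries thyroid hormone, read 135, 85.8 and 164 on the arrays labelled vector and 212, 136 and 125 on those labelled CCN5, at percentile 26.7, and its second probe lay at percentile 23.7. RBP4, the retinol carrier that travels with it, ranged from 190 to 236 over the 6 arrays, at percentile 34.8. The glycoprotein A1BG ranged from 194 to 360, at percentile 39.2, and AHSG, the mineral-binding fetuin, from 40.9 to 96.5, at 14.7. All 6 measured carriers thus lay below the 40th percentile. Of the hormone precursors, angiotensinogen, AGT, read 433, 431 and 456 on the arrays labelled vector and 514, 408 and 377 on those labelled CCN5, at percentile 46.1, and HAMP, which encodes hepcidin, the regulator of iron export, lay at percentile 10.3.

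Apolipoproteins held the highest levels of the set and also the lowest. APOC2, the cofactor of lipoprotein lipase, was the brightest gene, at percentile 80.2, and the most uneven of the bright ones. It read 2706, 1641 and 7321 on the arrays labelled vector and 6724, 2754 and 3992 on those labelled CCN5, so that vector replicates 2 and 3 differed by 4.46-fold. APOC1, an inhibitor of lipoprotein uptake, was at percentile 77.5 and steadier, with 3345, 3341 and 3492 against 2955, 2705 and 2412. APOC3, an inhibitor of triglyceride clearance, lay at percentile 64.2 with 1275, 1302 and 1237 against 1515, 1233 and 1252. APOM, a carrier of sphingosine 1-phosphate, was even across arrays at percentile 53.4, with 629, 641 and 637 against 684, 727 and 715, all arrays labelled CCN5 lying higher as deposited and overlapping the others after normalization.

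The structural apolipoproteins were dimmer. APOA1, the main protein of high density lipoprotein, read 495, 514 and 510 on the arrays labelled vector and 641, 447 and 398 on those labelled CCN5, at percentile 48.4. APOB, the scaffold of very low and low density lipoprotein, read 344, 380 and 356 against 463, 306 and 304, at percentile 43.0. For both genes CCN5 replicate 1 was the highest array and the other arrays labelled CCN5 were the lowest, so the groups overlapped. APOE, the ligand of remnant receptors, lay at percentile 35.2 and APOH, a phospholipid-binding protein, at 17.1. APOA2 was at 4.42 and APOA4, which is made mainly in the intestine, at 2.10, where vector replicate 1 read an intensity of -14.9. MTTP, which loads lipid onto APOB, lay at percentile 3.18.

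Several of these genes lie next to each other in the genome, and their percentiles are given as descriptions of their probes, which do not compare the levels of the genes. APOA1, APOC3 and APOA4 follow each other with no other protein-coding gene between them, with probes at percentiles 48.4, 64.2 and 2.10. The probes of APOE, APOC1 and APOC2, with 1 other coding gene among the genes, lay at 35.2, 77.5 and 80.2. Those of the 3 fibrinogen genes, next to each other, lay between 10.5 and 37.8, those of ITIH1, ITIH3 and ITIH4 between 6.97 and 45.5, and those of F7 and F10 at 37.7 and 33.7. ORM1 and ORM2 lay at 46.9 and 29.5, and SAA1 and SAA4, with 1 coding gene between, at 40.3 and 13.4.

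**Figure D2:**
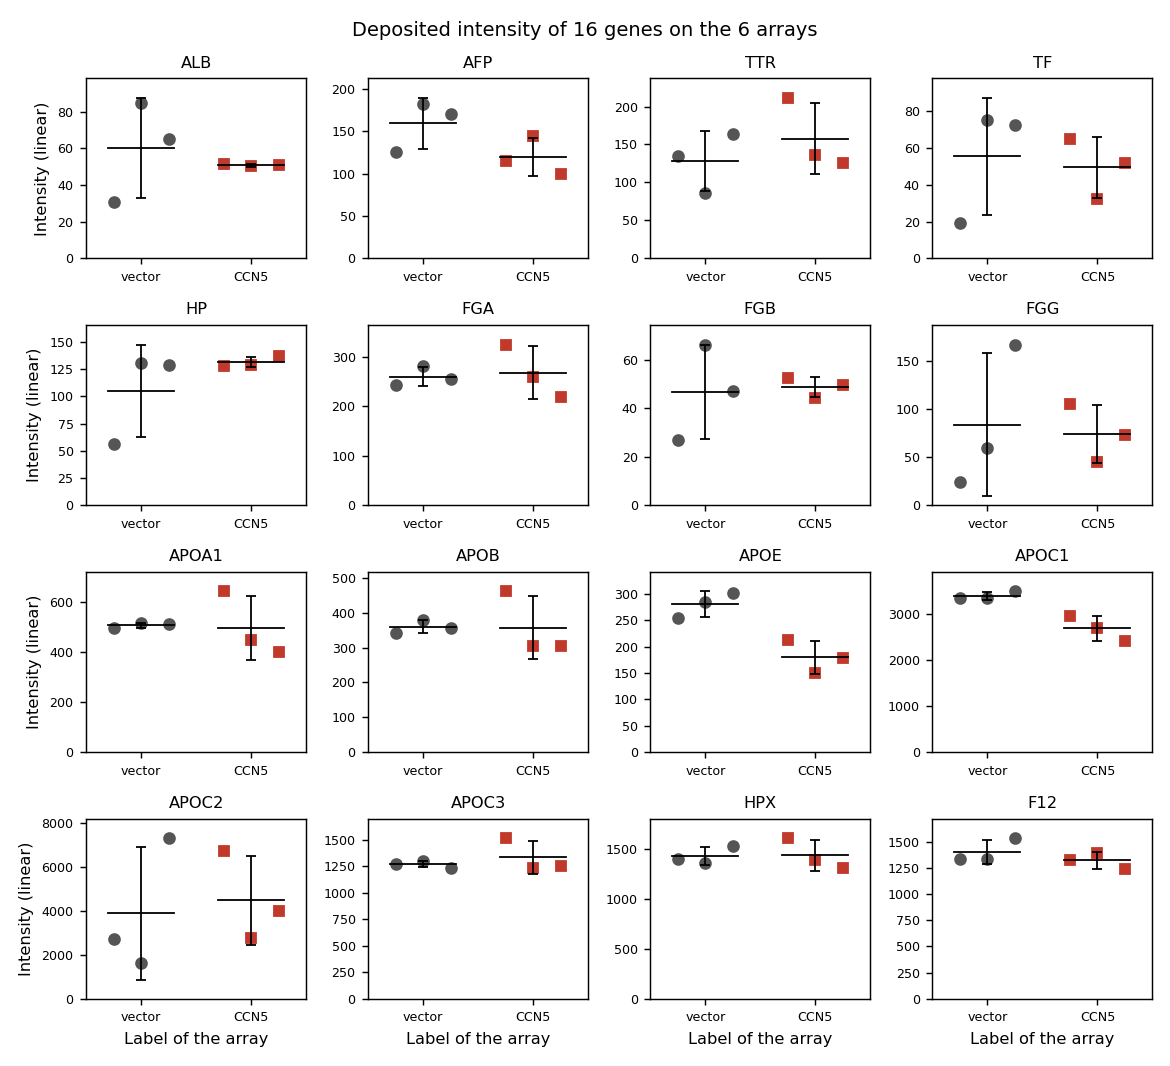
Deposited intensity on a linear scale, from 0, for 16 genes on the 3 arrays labelled vector (circles) and the 3 labelled CCN5 (squares), in replicate order from left to right, with the mean and SD of each group (n = 3). The groups do not overlap for APOE and APOC1, and APOC2 ranges from 1641 to 7321.

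Of the metal and haem binding proteins, haemopexin, HPX, which clears free haem, was the bright one. It read 1397, 1355 and 1527 on the arrays labelled vector and 1608, 1393 and 1308 on those labelled CCN5, at percentile 65.9. Transferrin, TF, the iron carrier, read 18.9, 75.5 and 72.4 against 64.7, 32.1 and 51.6, at percentile 10.9. Haptoglobin, HP, which binds free haemoglobin, read 55.8, 131 and 129 against 128, 129 and 137, at percentile 24.3. Vector replicate 1 was the lowest array for both TF and HP. Ceruloplasmin, CP, the copper oxidase, ranged from 119 to 185, at percentile 27.9.

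Fibrinogen, the precursor of the clot's fibre, is built from 3 chains, and the probes of all 3 were dim. FGA read 244, 282 and 255 on the arrays labelled vector and 326, 261 and 218 on those labelled CCN5, at percentile 37.8, with a second probe at 15.97. FGB read 26.9, 66.2 and 47.4 against 52.6, 44.4 and 49.6, at percentile 10.5. FGG read 23.9, 59.7 and 167 against 105, 44.4 and 72.5, at percentile 15.9, a 6.99-fold spread within the arrays labelled vector. Among the clotting factors F12, the starter of the contact pathway, stood apart with 1333, 1338 and 1533 against 1324, 1395 and 1241, at percentile 65.001. The vitamin K dependent factors F7, F10, F2 and F9 lay at 37.7, 33.7, 24.6 and 21.7, the cofactor F5 at 20.5, kininogen, KNG1, at 24.1, plasminogen, PLG, at 14.8 and vitronectin, VTN, at 8.11. Of the 12 genes of clotting, fibrinolysis and adhesion, 11 lay below the 50th percentile.

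Inter-alpha-trypsin inhibitors are proteoglycans in which AMBP supplies the light chain, bikunin, and ITIH1, ITIH2 and ITIH3 supply heavy chains. ITIH1 ranged from 370 to 451 over the 6 arrays and lay at percentile 45.5, ITIH4 at 42.2, AMBP at 32.3, ITIH2 at 30.0 and ITIH3 at 6.97. The genes grouped here as acute phase proteins do not include HP, CP and the fibrinogen chains, which are described above. Of this group, C-reactive protein, CRP, lay at percentile 49.0 and the orosomucoids ORM1 and ORM2, which bind basic drugs, at 46.9 and 29.5. The serum amyloids SAA1 and SAA4 lay at 40.3 and 13.4. SAA1 read 297, 325 and 319 on the arrays labelled vector and 315, 296 and 283 on those labelled CCN5. All 5 genes grouped here as acute phase proteins and all 5 genes of the inhibitor family thus lay below the 50th percentile. ORM2 ranged from 129 to 234, with CCN5 replicate 1 the highest. ORM1 and ORM2 are near-identical copies, so their probes may share transcripts.

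Just above the middle of the scale stood APOM (percentile 53.4), and just below it CRP (49.0) and APOA1 (48.4), whose ranges within single arrays, 46.9 to 51.6 and 46.1 to 51.1, crossed the 50th percentile. For the 14 genes with 2 or 3 probes, the probes of a gene lay 2.95 to 27.0 percentile points apart, and all of these probes, like all but 6 of the 60, lay below the 50th percentile.

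Other liver genes gave a mixed picture. Of 65 further liver-secreted proteins measured of 68 listed, 25 lay above the 50th percentile and the median was 36.0. The brightest were the clotting inhibitor TFPI (82.5), which many tissues make, CPN2 (78.0), a subunit of carboxypeptidase N, and complement factor CFI (77.7), while SERPINA1, alpha-1-antitrypsin, lay at 45.3. Of 25 liver enzymes 4 lay above the 50th percentile, the median being 29.5. CPS1, the first enzyme of the urea cycle, lay at 14.0, whereas the xenobiotic oxidase CYP1A2 (98.8) and the arginine-making enzyme ASS1 (98.7) were among the brightest probes. Hepatocyte transcription factors had 6 of 11 above the 50th percentile, led by CEBPB (96.0), CEBPA (82.9) and FOXA3 (79.2), and 5 of the 16 listed were not analysed here. Of 8 hepatoma genes 4 lay above it, with H19 at 93.2 and GPC3, the oncofetal glypican, at 16.3.

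Markers of other cell types were read the same way, from lists written with earlier results of these data known. A bright list is therefore a description and no independent check. Of 26 squamous and keratinocyte genes 19 lay above the 50th percentile, 9 above the 90th and 3 below the 25th. Among the brightest were TRIM29 (99.1), the basal keratins KRT5 (98.4), KRT15 (98.0) and KRT14 (95.4), and KRT13 (97.6). The dimmest were S100A9 (5.09), KLK7 (7.85) and SPRR3 (22.6). KRT5 read 42789 ± 5546 (SD, n = 3) on the arrays labelled vector and 58812 ± 11100 (SD, n = 3) on those labelled CCN5. The summed intensity of the 26 squamous and keratinocyte genes was 413813 to 436093 on the arrays labelled vector and 396765 to 401326 on those labelled CCN5. That of the 44 plasma protein genes was 16783 to 23511 and 16455 to 22844. Such sums cover different probes and different numbers of genes, so they do not compare the levels of the genes between lists. Of 13 simple epithelium genes 10 lay above the 50th percentile, of 15 mesenchymal and fibroblast genes 7, of 11 leukocyte genes 2, of 6 endothelial genes 1 and of 10 housekeeping genes 10. Leukocyte genes had a summed intensity of 7658 to 9491 on the arrays labelled vector and 5718 to 7243 on those labelled CCN5. Mesenchymal and fibroblast genes had 126879 to 133305 and 107712 to 119290. None of the marker genes in these lists read 0 or less on any array. That does not show detection, since 5.35% of all probes read under 1 on vector replicate 1 and 0.0814% or less on each other array. Most of the leukocyte sum came from CD68 and CD14, with means of 4437 and 1383 on the arrays labelled vector. Of the 11 leukocyte genes 4 lay below the 25th percentile, which were PTPRC (15.1), CD4 (15.1), CD3E (12.3) and LYZ (3.83). Most of the mesenchymal and fibroblast sum came from VIM and S100A4, with means of 56614 and 59919 on the arrays labelled vector. Of the 15 genes of that list 5 lay below the 25th percentile, among them COL3A1 (5.92), DCN (11.1) and COL1A2 (13.7). The part of all these marker genes in the values of the plasma protein genes was not tested, and no cell type is assigned from these lists.

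**Figure D3:**
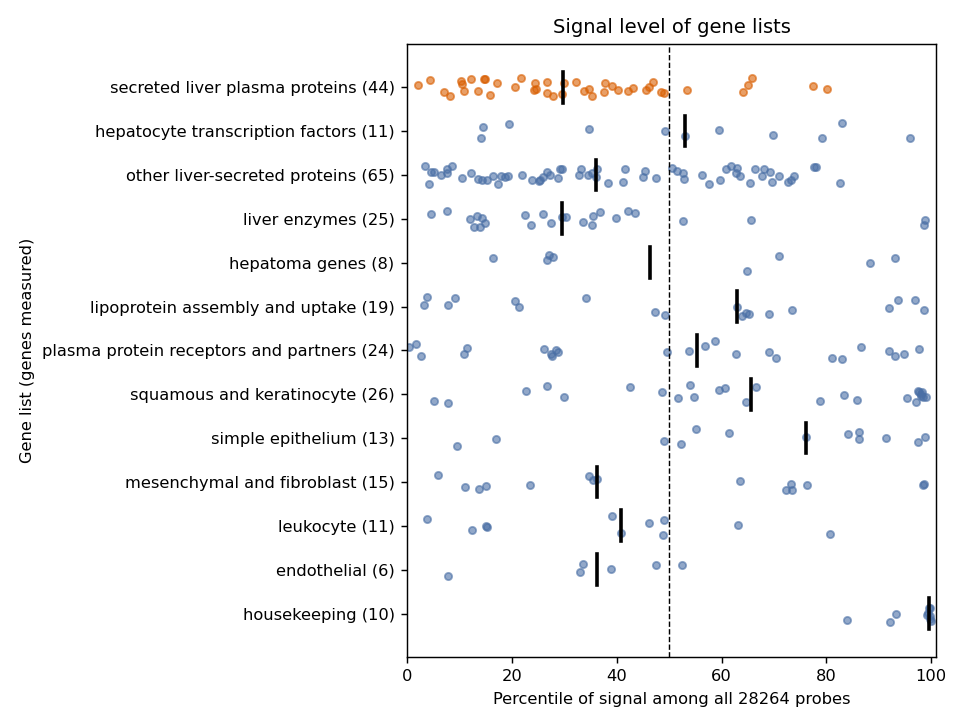
Percentile of signal among all 28264 probes for the genes of each list, by brightest probe, with the number of measured genes in parentheses. Black bars are list medians, 29.7 for the plasma protein genes, 65.7 for squamous and keratinocyte genes and 99.6 for housekeeping genes, and the vertical position of points within a list carries no meaning.

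The comparison of the labels asked whether the plasma protein genes differed between arrays labelled CCN5 and arrays labelled vector. None of the 44 passed limma's test over all probes (adjusted p 0.106 to 0.981), as was the case for all 28264 probes (0 called, 0.0%). At an unadjusted p under 0.05 limma gave 7 lower and 2 higher, 9 of 44 (20.5%), against 19.8% of all named genes (11.2% lower and 8.58% higher), a share near the background. Lower values with the CCN5 label were seen for 25 of the 44 and higher ones for 19, against 51.9% lower among all named genes. The median log2 difference, CCN5 minus vector, was -0.04 for the 44 genes and -0.01 for all named genes. By role, lower values were seen for 3 of 6 carriers, 0 of 2 hormone precursors, 5 of 10 apolipoproteins, 2 of 4 metal and haem binders, 8 of 12 clotting genes, 4 of 5 inter-alpha-trypsin inhibitor genes and 3 of 5 acute phase genes. Under median centring 16 of the 44 were lower and on the deposited log2 scale 20, while the median of all probes moved from -0.005 to 0.08 and 0.03, and the median of the 44 genes stood at 0.07 and 0.02, on either scale just below that of all probes.

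**Figure D4:**
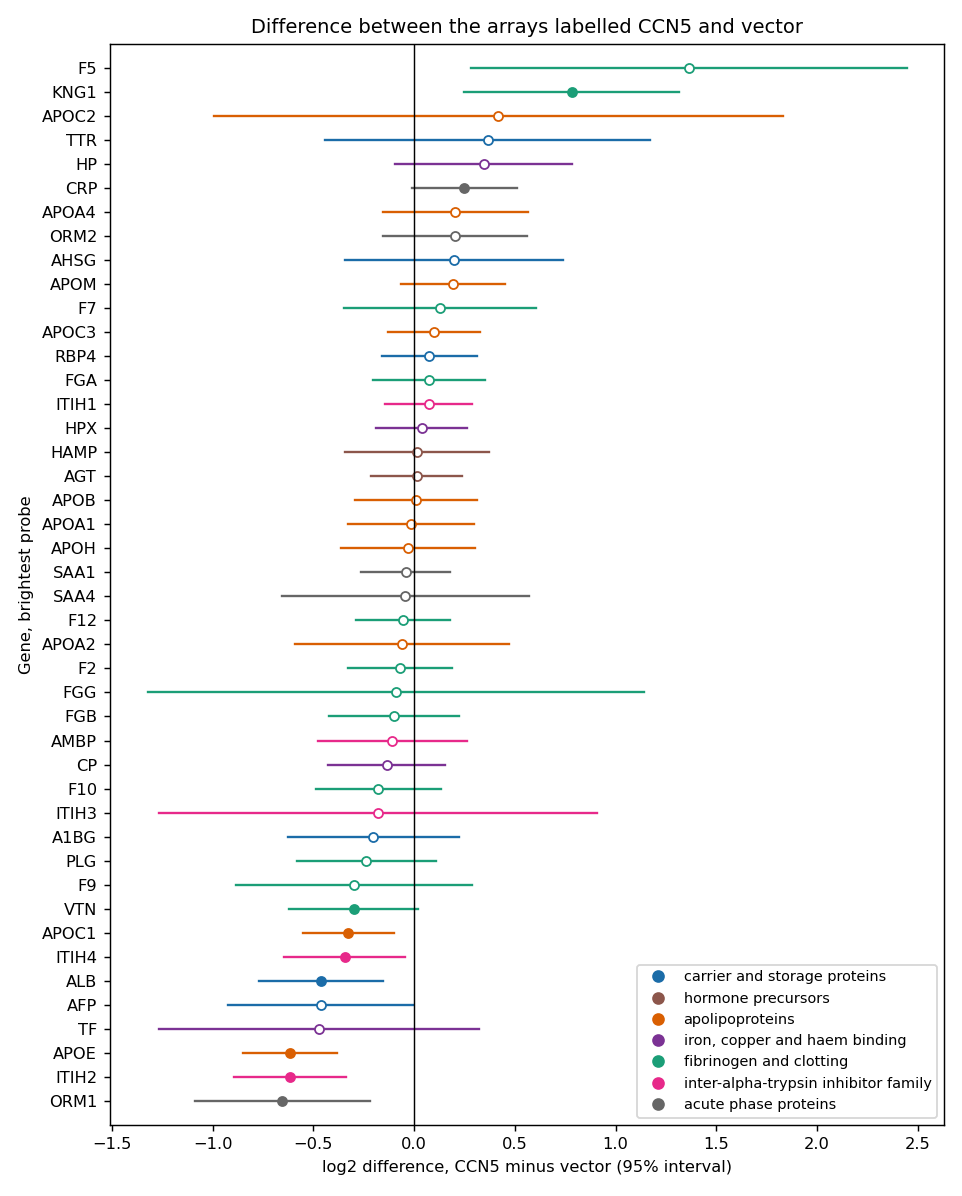
Difference in normalized log2 signal, arrays labelled CCN5 minus arrays labelled vector (n = 3 each), for the 44 genes, with 95% intervals from limma and colours by role. Filled points mark the 9 genes whose groups do not overlap on the normalized scale, and no gene passed the test over all probes.

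Groups that did not overlap on the normalized scale were found for 9 genes, 7 lower and 2 higher with the CCN5 label, or 20.5%, against 28.0% of all named genes (16.0% lower and 12% higher) and 18.6% of the dimmer 14132 probes (11.1% and 7.5%). They also did not overlap as deposited for 5 genes, all lower, which were APOE, ITIH2, ORM1, APOC1 and ITIH4. That is 5 of 44, where 20.2% of all named genes and 6.96% of the dimmer probes separated on both scales in either direction, and 11.1% and 4.08% with all arrays labelled CCN5 lower.

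APOE had the smallest p of the set. It read 254, 285 and 303 on the arrays labelled vector and 213, 150 and 178 on those labelled CCN5. The groups did not overlap, with every vector array above every CCN5 array. On the normalized log2 scale the CCN5 label stood at -0.61 relative to the vector label (SE 0.10, 95% interval -0.85 to -0.38, limma's adjusted p 0.106), or 1.53-fold. The threshold was passed, at adjusted p 0.0453 to 0.0497, without the dimmest 25% of probes (where 0.712% of probes were called lower), with a trended and robust variance (1.19%) and with log2(value + 50) (0.637%). It was passed in none of the other settings in which the p of APOE was read. Without the dimmest 50% of probes APOE, at percentile 35.2, was not tested.

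The heavy chain ITIH2 read 170, 238 and 209 on the arrays labelled vector and 137, 127 and 135 on those labelled CCN5, again without overlap. Its log2 difference was -0.62 (SE 0.12, 95% interval -0.90 to -0.34, limma's adjusted p 0.108). ITIH4, on the same side, read 360, 407 and 402 against 295, 325 and 281, a log2 difference of -0.34 (SE 0.12, adjusted p 0.219), and its second, dimmer probe gave -0.49 (SE 0.10). For ITIH1 the brightest probe gave 0.07 and the dimmer one -0.58, so the probes differed in sign.

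ORM1 read 517, 566 and 662 on the arrays labelled vector and 338, 445 and 313 on those labelled CCN5. The log2 difference was -0.65 (SE 0.18, adjusted p 0.157), the lowest of the 44 genes, although its second probe, with overlapping groups, gave -0.13 and ORM2 stood at 0.20. APOC1, whose intensities are given above, differed by -0.33 (SE 0.09, 95% interval -0.55 to -0.10, adjusted p 0.166). Without the dimmest 50% of probes, where 6 of the 44 genes were tested and 7.07% of probes were called (4.01% lower), APOC1 did not pass either.

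For ALB and VTN the order of the arrays depended on the normalization. The normalized log2 signal of ALB was 5.86, 6.07 and 5.79 on the arrays labelled vector and 5.34, 5.65 and 5.36 on those labelled CCN5, a difference of -0.46 (SE 0.13, adjusted p 0.158) without overlap. As deposited, however, vector replicate 1 read 30.89 and lay below all 3 arrays labelled CCN5. VTN read 11.96, 57.8 and 46.4 as deposited against 43.9, 33.0 and 41.7, and its log2 difference of -0.30 (SE 0.13, adjusted p 0.286) turned to 0.30 on the deposited log2 scale. Vector replicate 1 gave the lowest deposited intensity of the 6 arrays for 22 of the 44 genes (50%), against 37.8% of all probes, and 5.35% of its probes read under an intensity of 1. Its part in the order of the dim genes was not tested. AFP differed by -0.46 (SE 0.19, adjusted p 0.258), with overlapping groups.

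Higher values with the CCN5 label were led by F5 and KNG1. KNG1, the precursor of bradykinin, read 46.8, 94.2 and 130 on the arrays labelled vector and 191, 110 and 157 on those labelled CCN5, which overlap as deposited and separate after normalization. Its log2 difference was 0.78 (SE 0.22, adjusted p 0.163), but 2 dimmer KNG1 probes gave -0.10 and -0.18. F5 read 93.7, 57.8 and 48.3 against 202, 140 and 115, which separate as deposited and overlap after normalization, with a log2 difference of 1.36 (SE 0.45, adjusted p 0.194), the highest of the 44, and its dimmer probe gave -0.38. CRP read 471, 470 and 501 against 642, 466 and 557, a difference of 0.25 (SE 0.11, adjusted p 0.279). HP stood at 0.34 (SE 0.18, adjusted p 0.356), APOM at 0.19 (SE 0.11, adjusted p 0.383) and APOA4, near the bottom of the scale, at 0.20 (SE 0.15, adjusted p 0.503). Of the 14 genes with several probes, the probes shared a sign for 8 and differed in sign for 6, which were F5, F7, F9, PLG, KNG1 and ITIH1.

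For the brightest probes of the other main products the 95% intervals included 0. The log2 difference was -0.01 (95% interval -0.33 to 0.30) for APOA1, 0.01 (-0.29 to 0.31) for APOB, 0.01 (-0.21 to 0.24) for AGT and -0.04 (-0.26 to 0.18) for SAA1. APOA1's dimmer probe, at percentile 44.1, gave -0.51 (SE 0.21, limma's adjusted p 0.259), with all arrays labelled CCN5 lower as deposited and overlapping groups after normalization. The fibrinogen chains stood at 0.07 (SE 0.12) for FGA, -0.10 (SE 0.13) for FGB and -0.09 (SE 0.51) for FGG, TF at -0.47 (SE 0.33) and TTR at 0.37 (SE 0.33). FGA's dimmer probe gave 0.62 (SE 0.17, limma's adjusted p 0.154), with all arrays labelled CCN5 higher after normalization. For CP the brightest probe gave -0.14 and the dimmer one -0.37 (SE 0.11, limma's adjusted p 0.168), with all arrays labelled CCN5 lower after normalization. As deposited, the groups overlapped for both of these dimmer probes. Of the brighter genes, APOC2 stood at 0.42 with an SE of 0.59, APOC3 at 0.10, HPX at 0.04 and F12 at -0.05. Intervals of this width do not show that the labels gave the same level.

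**Figure D5:**
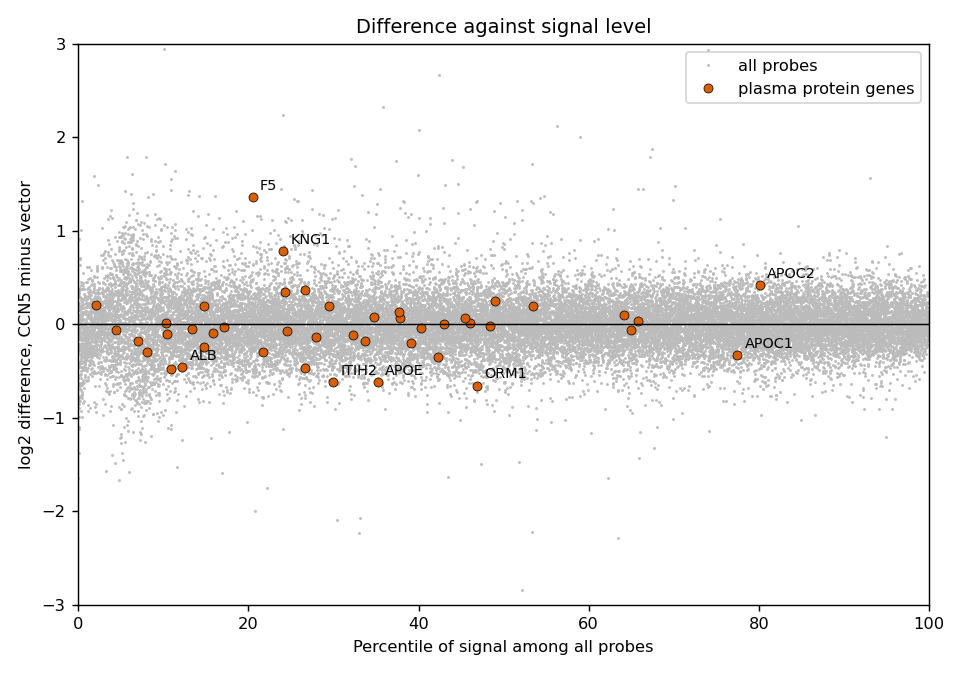
Difference in normalized log2 signal, arrays labelled CCN5 minus arrays labelled vector, against the percentile of signal, for all probes (grey dots) and the 44 plasma protein genes (orange circles). The genes crowd the dimmer side of the plot and lie within the cloud of all probes, and 6 probes beyond a difference of 3 in either direction are not drawn.

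Genes that act with these proteins were compared in the same fit, and 0 of them passed it. Of 65 further liver-secreted proteins 43 were lower and 22 higher with the CCN5 label, with a median log2 difference of -0.13 and 14 lower and 6 higher at an unadjusted p under 0.05 (20 of 65, 30.8%, against 19.8% of all named genes, 11.2% lower and 8.58% higher). Their smallest p belonged to SERPINF1 at -0.67 (SE 0.09, adjusted p 0.0969), the liver peptide LEAP2 at 0.57 (SE 0.10) and complement factor CFI at -0.62 (SE 0.11). Of 19 genes of lipoprotein assembly and uptake 16 were lower, with a median of -0.16 and 6 lower at an unadjusted p under 0.05 (against 11.2% of all named genes), and ABCG1, a cholesterol exporter, stood at -0.81 (SE 0.17, adjusted p 0.122). Receptors and partners of plasma proteins were lower for 15 of 24 with a median of -0.04, and TFRC, the transferrin receptor, at percentile 97.7, stood at 0.07. At an unadjusted p under 0.05 limma gave 4 lower and 1 higher of these 24 (20.8%, against 19.8% of all named genes). The smallest p among them belonged to PLAU at -0.97 (SE 0.12, adjusted p 0.0969), PLAUR at -0.56 (SE 0.11, adjusted p 0.113) and F3 at 0.50 (SE 0.10, adjusted p 0.121). Liver enzymes were lower for 20 of 25 (median -0.10), hepatocyte transcription factors for 6 of 11 (-0.06) and hepatoma genes for 4 of 8 (-0.07). Markers of other cell types stood at medians of -0.17 for squamous and keratinocyte genes (19 of 26 lower), -0.01 for simple epithelium (7 of 13), -0.21 for mesenchymal and fibroblast genes (10 of 15), -0.34 for leukocyte genes (10 of 11), -0.05 for endothelial genes (4 of 6) and -0.02 for housekeeping genes (6 of 10), and their part in the differences of the plasma protein genes was not tested.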

How the data were processed

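The deposited values are linear Cy3 intensities, 1 for each probe of each array. Per the labels' protocols, total RNA was amplified from a T7 oligo(dT) primer and dye-labelled, so probes near the 3' end of a transcript are favoured. No source used here gives the scanner, background correction or normalization by the authors. Negative intensities on 3 arrays (1330, 12 and 6 probes) show that background was subtracted.

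Intensities under 1 were set to 1, converted to log2 and quantile normalized. The 28264 probes were fitted in R 4.3.3 with limma 3.58.1 (lmFit, eBayes) as CCN5 minus vector, 3 arrays each, without covariates, and two-sided p-values were adjusted over the whole table (Benjamini-Hochberg, threshold 0.05). The platform annotation named 25893 probes, all matched to RefSeq (GRCh38.p14) for current symbols, and 2371 stay unnamed here. The fit was tested on simulated data, with changes placed only in probes at or above the median level. That test therefore does not cover the 38 plasma protein genes below the 50th percentile.

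The plasma protein genes and all lists were chosen with earlier results of these data known. Named genes were the main hepatocyte products, genes above the 50th percentile of signal, the 6 smallest p in each direction and genes whose groups did not overlap. For other lists, counts and a few of the brightest or smallest-p genes are given. Alternatives covered scaling (as deposited in log2, median centred, log2(value + 50)), filters on dim probes, the variance (trended and robust, or weighted by array), the replicate block, other choices of probe, percentiles within single arrays and leaving out each array.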

Additional observations from a re-analysis of the deposited data

How the results depend on the processing

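Settings were planned. Probes called higher and lower (0 and 0) numbered 59 and 180 (239 in all) with log2(value + 50), 33 and 151 (184) without the dimmest 25% of probes, 432 and 567 (999) without the dimmest 50%, 188 and 336 (524) with a trended and robust variance, and 0 and 0 to 1 without 1 array. Of the plasma protein genes 1, APOE, was called with log2(value + 50) (-0.50), without the dimmest 25% of probes (-0.61) and with the trended and robust variance (-0.61), and 0 without 1 array; the CCN5 probe passed without the dimmest 50% (-0.34; -0.38 to -0.30 without 1 array). Plasma protein genes below 0 (25) numbered 16 of 44 under median centring, 2 of 6 without the dimmest 50% of probes, and 20 to 29 without 1 array, where the median difference was -0.07 to 0.02, being 0.02 without CCN5 replicate 2 and 0.01 without vector replicate 1. Signs turned on the deposited log2 scale for AGT (-0.0341), APOB (-0.0378), TF (0.0165), FGB (0.15), FGG (0.17) and VTN (0.30), under median centring for TF (0.0611), FGB (0.20), FGG (0.21) and VTN (0.35), and with array weights for APOB (-0.0370) and FGG (0.0258); the cause was not tested. Without 1 array, signs turned within -0.14 to 0.0793 for APOA1, -0.0199 to 0.55 for TTR, -0.0419 to 0.0548 for AGT, -0.0652 to 1.02 for APOC2, -0.0116 to 0.0787 for HPX, -0.11 to 0.0694 for APOB, -0.46 to 0.48 for FGG, -0.10 to 0.0014 for F12 and -0.0735 to 0.0129 for SAA1. Of 27 named genes 15 never changed sign. The median percentile of signal (29.7) was 27.5 by the mean of a gene's probes, 25.6 by the dimmest probe, and 31.6, 31.4 and 32.2 within vector replicates 2 and 3 and CCN5 replicate 1; 6 genes lay above the 50th percentile without any 1 array, at median percentiles of 29.2 to 30.0. Same-number deviations correlated at -0.14, 0.12 and 0.02, which shows no strong shared deviation and cannot settle whether the numbers pair the arrays. The replicate block gave 0 calls, -0.04 for the median and -0.34 for CCN5. No detection flags were used, so depth of signal over background limits the dim genes.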
